A study of Mus musculus with 32 samples.

Results

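Mouse zinc finger genes whose symbol is Zfp and a number were described, and 266 of them were measured at a mean CPM (count scaled to library total) of 5 or more in the 16 libraries of vehicle-treated mice, out of 365 protein-coding Zfp genes in a table of 54146 genes. Another 94 Zfp genes had counts but a lower mean, and 5 had no count. All 266 passed the filter on low counts in both regions. The genes were chosen by their level in the vehicle libraries, so those levels are a description.

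Each library held polyA RNA of 1 hippocampal or striatal hemisphere from a single male C57BL/6 mouse of 12 weeks. Mice were injected intraperitoneally with vehicle or with 30 mg/kg of CI-994, which blocks class I histone deacetylases (enzymes that take acetyl groups off histones); the groups are called HDACi and Veh. Behaviour began 1 hour later. It was either contextual fear conditioning (CFC) with 2 foot shocks of 0.2 mA, or the same time in the chamber with no shock (Context). Tissue was taken 1 hour after that. The 8 groups are thus Veh and HDACi after CFC and after Context in each region, with 4 libraries each, and every mouse was injected and placed in the chamber. Whether hippocampus and striatum libraries came from the same mice is not stated in the labels, and the fits treat them as separate.

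Most of these genes encode C2H2 zinc finger proteins, in which each finger is a small zinc-holding fold that reads a few bases of DNA. Many carry a KRAB box before the fingers. The KRAB box binds the corepressor Trim28, which brings the histone H3 lysine 9 methyltransferase Setdb1, heterochromatin proteins and the deacetylase-containing NuRD complex to the bound site, and such proteins are known for silencing transposable elements and for keeping imprinted genes marked. KRAB zinc finger genes lie in clusters formed by repeated duplication, so neighbours resemble each other in sequence.

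Library totals ran from 26026024 to 36670767 counts, of which the 266 genes took 0.675% to 0.873%. Markers of hippocampal excitatory neurons summed to 1383 to 2005 CPM in hippocampus and 100.4 to 475.7 CPM in striatum, and markers of medium spiny neurons to 3970 to 6640 CPM and 68.33 to 116.1 CPM, so both tissue labels were met. In each region 2 libraries stood apart. HDACi CFC hippocampus replicates 2 and 4 had high choroid plexus markers (Ttr at 5430 and 5240 CPM, all 6 listed markers above 0), against at most 355 CPM in other hippocampus libraries. Veh CFC replicate 3 and HDACi CFC replicate 2 of striatum had the lowest medium spiny marker levels. The counts called lower are also given without these 4. In bulk tissue, fewer cells of a type and less RNA per cell cannot be told apart.

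Zfp genes were broadly lower in mice given CI-994, other than most of those at 50 CPM or more. In hippocampus after CFC, 164 of the 266 fell and 7 rose (61.7% and 2.63%), while 13.4% and 7.42% of all genes tested were called lower and higher. After Context in hippocampus the numbers were 160 lower and 6 higher, beside 13.2% and 6.55% of all genes. In striatum 160 were lower and 11 higher after CFC, beside 14.6% and 9.57%, and 165 were lower and 12 higher after Context, beside 14.5% and 10.3%. Protein-coding genes at 5 CPM or more, a set closer to the members, were lower in 17.5%, 17.1%, 19.6% and 20% in the same order. They were higher in 6.27%, 6.2%, 8.74% and 8.84%. The falls were moderate in size: the median log2 fold change of the 266 was -0.42 and -0.41 in hippocampus after CFC and Context, and -0.42 and -0.41 in striatum, where that of all genes tested lay between 0.01 and 0.03. Summed over the 266, the level was 8296 ± 437 CPM (SD, n = 4) in Veh and 6919 ± 210 CPM in HDACi hippocampus after CFC. In striatum after CFC it was 8288 ± 157 CPM and 7001 ± 219 CPM. The lowest Veh library of all 16 summed to 7715 CPM and the highest HDACi library to 7352 CPM, so the drug groups did not overlap in that sum.

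Called members were largely shared between regions and behaviours. Of the 266, 131 (49.2%) fell in all 4 drug comparisons, 61 fell in 1 to 3 of them, 59 were called in none, 10 rose in 1 to 3 and 5 rose in all 4. No member was called in opposite directions. Among all genes tested in both regions, 8.71% were called lower and 2.34% higher in all 4. Unlike the members, that set also holds genes that are under 5 CPM or not protein-coding. The 4 comparisons use separate libraries, and across the 266 genes their log2 fold changes had Pearson's r of 0.97 between behaviours in hippocampus, 0.96 in striatum, and 0.86 to 0.88 between regions; genes are not independent replicates. Without the libraries that stood apart, 124 (46.6%) members were called lower in hippocampus after CFC, where the HDACi group then held 2 libraries, and 161, 162 and 171 in the other comparisons. Of all genes tested, 8.73% were lower in hippocampus after CFC under that setting, and 13.1%, 14.8% and 17.2% in the others. Where the level limit was set on the HDACi libraries in place of the Veh ones, 222 genes qualified, 220 of them members, and 52.7% to 55.9% were called lower.

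The member with the largest mean fall was Zfp472, a KRAB zinc finger gene with 13 fingers on chromosome 17. The 5 CPM limit was set on the Veh libraries. The HDACi values given below for Zfp472, Zfp791, Zfp954, Zfp111 and Zfp960 are under it, so these genes passed by their Veh level. In hippocampus after CFC the 4 Veh libraries read 6.81, 6.67, 7.26 and 7.23 CPM for Zfp472 and the 4 HDACi libraries 1.91, 1.79, 1.94 and 1.74 CPM. In striatum after CFC the Veh libraries read 4.4, 5.76, 5.15 and 5.02 CPM and the HDACi libraries 1.19, 0.987, 0.864 and 1.06 CPM. Every HDACi library was below every Veh library in both regions. The log2 fold change was -1.86 ± 0.15 (SE) in hippocampus (adjusted p = 7.99e-07) and -2.22 ± 0.17 in striatum (adjusted p = 2.24e-07), which are 3.62-fold and 4.66-fold falls. After Context it fell 3.71-fold and 4.81-fold.

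Zfp791, with 15 fingers and a KRAB box, and Zfp954, with 9 fingers and a KRAB box, followed. Zfp791 read 6.09, 7.19, 7.35 and 7.25 CPM in Veh and 2.49, 2.16, 1.75 and 1.98 CPM in HDACi hippocampus after CFC, a 3.17-fold fall (adjusted p = 1.22e-06), and it fell 4.18-fold in striatum (adjusted p = 4.79e-07). Zfp954 read 11.8, 12.9, 11.5 and 11.2 CPM in Veh and 4.46, 3.61, 3.81 and 3.26 CPM in HDACi hippocampus after CFC, and 8.98, 9.92, 10.8 and 10.5 CPM against 2.84, 3.66, 2.95 and 2.82 CPM in striatum. These groups did not overlap, and the falls were 2.99-fold (adjusted p = 9.49e-08) and 3.09-fold (adjusted p = 9.94e-08).

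Zfp111, a KRAB gene with 14 fingers in a run of such genes on chromosome 7, had the smallest adjusted p of the 266 in each drug comparison. It read 15.1, 12.7, 15.8 and 14 CPM in Veh and 4.17, 4.42, 4.03 and 4.63 CPM in HDACi hippocampus after CFC, a 3.19-fold fall (adjusted p = 1.6e-08). Its fall was 2.97-fold, 2.6-fold and 2.78-fold in hippocampus after Context and in striatum after CFC and Context. Zfp287, which has both a SCAN and a KRAB domain, fell 2.45-fold to 2.53-fold, and Zfp868 fell 2.04-fold to 2.54-fold. Zfp599 fell 2.33-fold and 1.91-fold in hippocampus and 4.04-fold and 3.47-fold in striatum. Zfp39 fell 2.28-fold and 2.27-fold in hippocampus and 1.73-fold and 1.67-fold in striatum; 11.4% of its exons overlap another gene. The calls of these genes held when any 1 library was left out. Zfp599 and Zfp39 did not pass the test of the difference in drug effect between regions after either behaviour.

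Zfp960, next by mean fall after these and Zfp111, shares 69.2% of its transcript's 100-base stretches with other genes, chiefly its neighbour Zfp97, so reads of the pair can be split or lost. Zfp960 read 5.40 ± 1.03 CPM in Veh and 1.55 ± 0.154 CPM in HDACi hippocampus after CFC, and Zfp97 7.30 ± 0.63 CPM and 2.34 ± 0.559 CPM. Both were lower in every HDACi library of that comparison than in any Veh library.

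**Figure D1:**
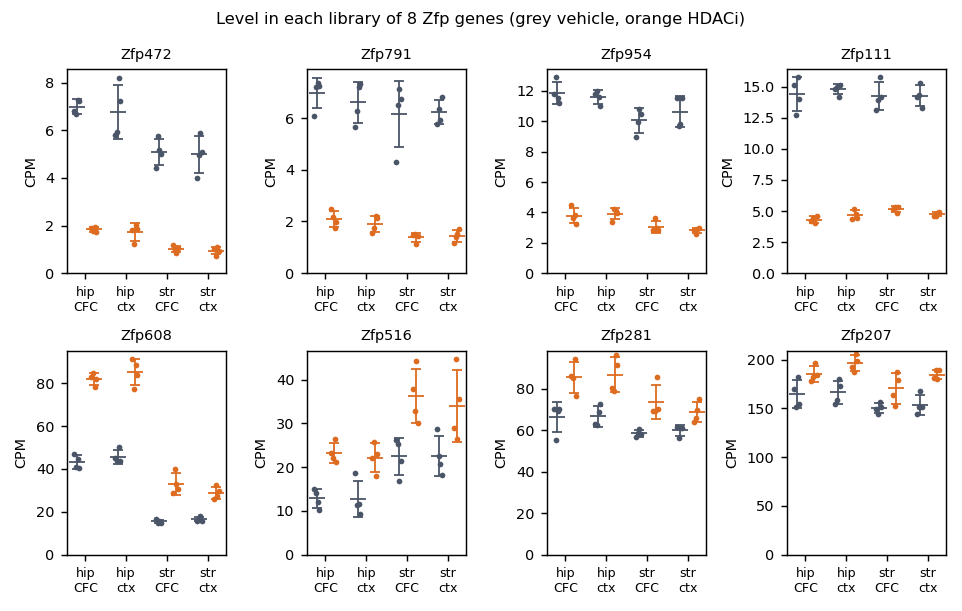
Level in CPM (linear axis from 0) of 8 Zfp genes in each library, by region (hip, hippocampus; str, striatum) and behaviour (ctx, Context), vehicle in grey and HDACi in orange; points are libraries and bars are mean ± SD of 4. Zfp472, Zfp791, Zfp954 and Zfp111 have no overlap between drug groups, and Zfp608 is higher in every HDACi group, with its level in hippocampus above that in striatum.

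The share that fell was higher among genes with a KRAB box. A script found a KRAB A box in 157 of the 266 and none in 109, some of which may hold a divergent box or one in another isoform. In hippocampus after CFC, 126 of the 157 KRAB genes (80.3%) fell and none rose, while 38 of the 109 others (34.9%) fell and 7 rose. The shares lower were 78.3% and 33.9% in hippocampus after Context, 75.2% and 38.5% in striatum after CFC, and 75.8% and 42.2% in striatum after Context. Median log2 fold changes were -0.56 and -0.19 in the first comparison. Of the 131 members lower in all 4 comparisons, 104 had the box and 27 did not, and the 5 higher in all 4 had none. Of the KRAB genes, Zfp60 and Zfp612 were called higher, each in the 2 striatum comparisons. Neither passed the test of the region difference of the drug effect. Without the libraries that stood apart the shares lower in hippocampus after CFC were 63.1% and 22.9%, beside 8.73% of all genes tested. These are counts, and the difference between the sets was not tested.

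**Figure D2:**
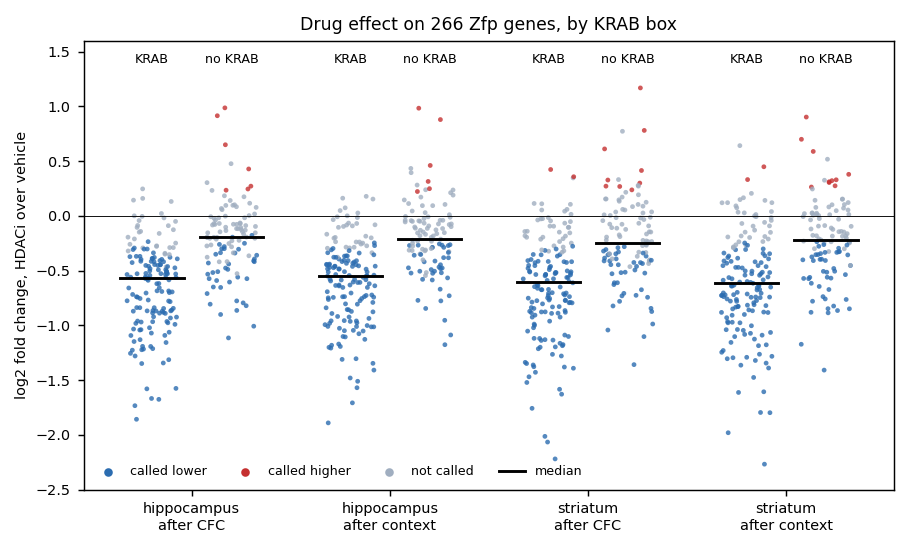
Log2 fold change of HDACi over vehicle for each of the 266 Zfp genes in the 4 drug comparisons, split by KRAB box; blue points were called lower, red higher, grey neither, and black lines are medians. The KRAB medians lie between -0.55 and -0.62 and the others between -0.19 and -0.25.

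Median level and GC content were lower for KRAB genes than for the rest. In hippocampus after CFC the share called lower varied with both, though among members not in a steady order for GC content. The median Veh level was 15.7 CPM with the box and 26.6 CPM without it. Of the 57 members under 10 CPM, 73.7% fell in hippocampus after CFC, against 67% of the 91 at 10 to 20 CPM, 61.6% of the 86 at 20 to 50 CPM and 25% of the 32 at 50 CPM or more. Of those 32, 9.38% rose there, and in hippocampus after Context 12.5% fell and 12.5% rose. In striatum 9.38% of them fell and 18.8% rose after CFC, and 15.6% fell and 21.9% rose after Context. These classes were set on the Veh level, which also decided membership and is the base of each fold change. Genes near the 5 CPM limit could thus be members because their Veh level was the higher one. Of the members, 220 also reached that limit in the HDACi libraries. Whether the share depends on level apart from this choice was not tested. At 10 CPM or more, 78% of 118 KRAB genes and 33% of 91 others fell in hippocampus after CFC. Transcript GC content had a median of 42% with the box, 48.8% without it and 49.4% in other protein-coding genes. Protein-coding genes were put in 5 equal classes by GC content. In the lowest class, 79.4% of 97 KRAB genes, 40% of 30 other members and 20.4% of 2098 other protein-coding genes were called lower in hippocampus after CFC. In the highest class the shares were 57.1% of 7, 19.2% of 26 and 6.25% of 2191. Between these, from low to high GC content, the KRAB shares were 79.3%, 94.4% and 83.3%. Those of other members were 35.7%, 30.4% and 56.2%. In striatum after CFC the KRAB shares ran 74.2%, 75.9%, 77.8%, 83.3% and 71.4% from the lowest class to the highest. With offsets for GC content and length in the fit, 82.2% of KRAB genes and 45.9% of the others were called lower in hippocampus after CFC. Of all genes tested, 17.6% were lower in that fit.

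**Figure D3:**
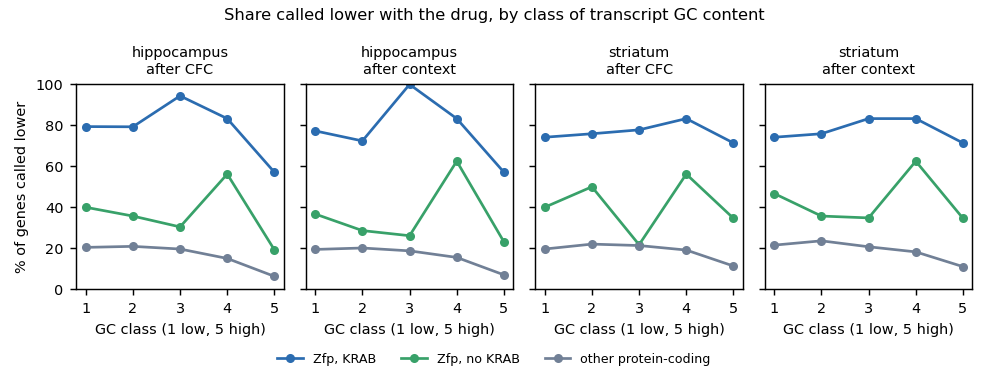
Percent of genes called lower with HDACi in 5 classes of transcript GC content (1 lowest, 5 highest) for KRAB Zfp genes, other Zfp genes and other protein-coding genes at 5 CPM or more, in the 4 drug comparisons. In each class of each comparison the KRAB line is above the other lines, and the upper classes hold few KRAB genes (7 in the highest).

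The share that fell also differed with chromosomal position. With gaps of at most 500 kb, 89 members lay in 10 runs of 5 or more, 73 in runs of 2 to 4, and 104 stood alone; 82%, 60.3% and 45.2% of them fell in hippocampus after CFC, and 83.1%, 60.3% and 45.2% in striatum after Context. The longest run, 18 members at chr17:21008903-23599487 (GRCm38), consisted of KRAB genes, of which 13 fell in all 4 comparisons and none rose; it holds Zfp160, which fell 1.67-fold to 2.07-fold, and Zfp945. The run with Zfp472 at chr17:32765496-33631779 had 11 members, 7 lower in all 4 and 4 never called. On chromosome 13, 7 of 9 members at chr13:67038596-67827002 fell in all 4. The run of 5 at chr7:27731389-28014115 was mixed: 4 fell in all 4, and its first member, Zfp60, rose 1.28-fold and 1.26-fold in striatum (adjusted p = 0.00163 and 0.00272), with log2 fold changes of -0.04 and -0.08 in hippocampus that were not called. Zfp60 did not pass the test of the region difference after either behaviour. The runs are rich in KRAB genes, and the part of position was not tested.

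**Figure D4:**
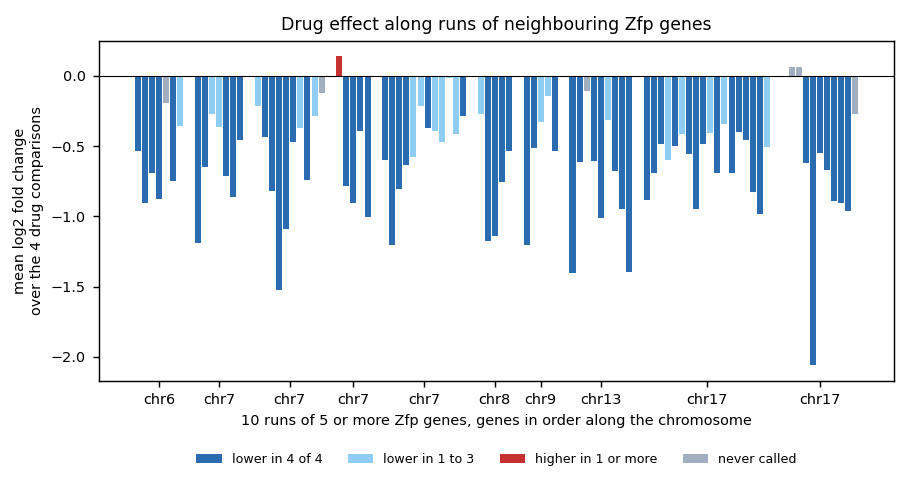
Mean log2 fold change over the 4 drug comparisons for each of the 89 members in the 10 runs of 5 or more, in order along the chromosome; dark blue, lower in all 4; light blue, lower in 1 to 3; red, higher in at least 1; grey, never called. Most bars point down in each run; 1 red bar, Zfp60, points up in a run on chromosome 7, and small grey bars point up in the last run on chromosome 17.

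Counts of near-identical relatives are uncertain, so members were set apart by shared sequence. Of the 266, 94 shared at least 1 stretch of 100 bases, the read length, with another gene, and 35 shared 10% or more. Of those 35, 57.1% fell in hippocampus after CFC, against 62.3% of the other 231. Among the 149 with no shared stretch and no exon overlap the share was 61.1%, with a median log2 fold change of -0.42. By number of fingers, 60% of 5 members with 0, 30.3% of 33 with 1 to 4, 62.3% of 69 with 5 to 9, 70.7% of 99 with 10 to 14 and 63.3% of 60 with 15 or more fell in that comparison.

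The 5 genes that rose in all 4 comparisons have no KRAB box. Zfp608, a close relative of Zfp609, showed the largest rise. It read 46.8, 40.7, 44.8 and 40.6 CPM in Veh and 83, 85, 78.1 and 81.8 CPM in HDACi hippocampus after CFC, and 16.6, 14.7, 15.9 and 15 CPM against 28.7, 40, 32.8 and 30.6 CPM in striatum. The groups did not overlap in either region, and the rises were 1.98-fold (adjusted p = 3.49e-07) and 2.25-fold (adjusted p = 3.95e-07). After Context it rose 1.98-fold and 1.87-fold.

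Zfp516, known as a driver of the brown fat gene programme, read 15, 14.2, 12.1 and 10.3 CPM in Veh and 23.2, 22, 26.4 and 21.2 CPM in HDACi hippocampus after CFC, a 1.89-fold rise (adjusted p = 0.00114). In striatum after Context its groups came close, at 18.1 to 28.8 CPM and 26.4 to 44.8 CPM, and overlapped (1.62-fold, adjusted p = 0.00996). Zfp281, a transcription factor studied in pluripotent stem cells, read 70.3, 55.4, 69.3 and 70.3 CPM in Veh and 85.9, 84.9, 94.3 and 76.5 CPM in HDACi hippocampus after CFC. It rose 1.35-fold there (adjusted p = 0.00551) and 1.24-fold to 1.38-fold elsewhere; its call in striatum after Context was lost without Veh Context replicate 2 (adjusted p = 0.0602).

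Zfp207, a microtubule-binding protein of the mitotic spindle also called BuGZ, rose 1.18-fold to 1.3-fold, and Zfp609, which works with Integrator and Nipbl in neural progenitors, 1.19-fold to 1.26-fold. In hippocampus after CFC Zfp207 read 170, 151, 182 and 155 CPM in Veh and 178, 182, 197 and 184 CPM in HDACi, which overlap. Some of these calls rested on single libraries. In hippocampus after CFC the Zfp207 call was lost on leaving out 6 of the 8 libraries in turn (highest adjusted p = 0.106, without Veh CFC replicate 4) and also without the libraries that stood apart (0.0598). In hippocampus after Context the Zfp609 call was lost on leaving out 6 of 8 (highest adjusted p = 0.0877, without Veh Context replicate 4), and without the libraries that stood apart its hippocampus calls were lost after CFC (0.0711) and Context (0.0597). After CFC the Zfp609 call in hippocampus was lost without HDACi CFC replicate 1 (0.0613), and the Zfp207 call in striatum on leaving out 2 of 8 (highest 0.0713, without Veh CFC replicate 2). Library-size scaling ended the calls of both genes in hippocampus after CFC, of Zfp609 in both regions after Context and of Zfp207 in striatum after CFC.

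Promoters are shown for genes lower in all 4 comparisons (Zfp472, Zfp791, Zfp954 and Zfp712) or higher in all 4 (Zfp281 and Zfp207). They had the largest mean changes among such genes with a RefSeq promoter whose start lay close to the GENCODE start. Each is the 250 bases before the RefSeq start on GRCm38.p6, written along the gene's strand 5′ to 3′, and capitals mark the letters CCAAT: Zfp472 is at chr17:32965581-32965830 (plus strand), Zfp791 at chr8:85123096-85123345 (minus), Zfp954 at chr7:7121477-7121726 (minus), Zfp712 at chr13:67061171-67061420 (minus), Zfp281 at chr1:136624651-136624900 (plus) and Zfp207 at chr11:80383029-80383278 (plus).
Zfp472: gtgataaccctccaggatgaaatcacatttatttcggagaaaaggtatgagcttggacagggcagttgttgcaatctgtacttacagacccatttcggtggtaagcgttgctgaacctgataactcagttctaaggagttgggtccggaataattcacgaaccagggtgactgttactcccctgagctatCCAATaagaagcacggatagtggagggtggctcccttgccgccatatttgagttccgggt
Zfp791: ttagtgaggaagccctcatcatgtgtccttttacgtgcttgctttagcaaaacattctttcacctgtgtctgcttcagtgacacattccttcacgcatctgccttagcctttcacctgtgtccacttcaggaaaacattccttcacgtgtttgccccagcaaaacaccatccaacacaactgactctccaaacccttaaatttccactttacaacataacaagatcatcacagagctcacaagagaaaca
Zfp954: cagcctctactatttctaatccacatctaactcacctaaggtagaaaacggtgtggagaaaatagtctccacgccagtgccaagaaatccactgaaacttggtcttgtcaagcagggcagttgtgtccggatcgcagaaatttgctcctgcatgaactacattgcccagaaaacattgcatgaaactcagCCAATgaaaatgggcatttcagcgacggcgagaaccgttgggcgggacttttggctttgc
Zfp712: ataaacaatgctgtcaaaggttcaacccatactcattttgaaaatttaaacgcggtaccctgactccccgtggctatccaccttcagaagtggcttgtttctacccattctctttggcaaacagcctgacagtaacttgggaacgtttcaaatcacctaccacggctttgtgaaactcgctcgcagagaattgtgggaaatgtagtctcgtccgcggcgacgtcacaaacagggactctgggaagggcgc
Zfp281: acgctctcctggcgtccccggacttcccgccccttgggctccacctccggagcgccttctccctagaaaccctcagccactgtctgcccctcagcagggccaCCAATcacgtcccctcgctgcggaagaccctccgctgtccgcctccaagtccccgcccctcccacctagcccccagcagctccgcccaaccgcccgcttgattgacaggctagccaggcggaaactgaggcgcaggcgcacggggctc
Zfp207: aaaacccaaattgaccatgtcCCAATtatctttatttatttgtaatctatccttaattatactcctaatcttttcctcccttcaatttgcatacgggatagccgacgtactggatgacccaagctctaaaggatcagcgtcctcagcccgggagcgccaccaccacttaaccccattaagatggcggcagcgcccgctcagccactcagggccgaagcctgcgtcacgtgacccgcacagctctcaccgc

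Of these, Zfp472, Zfp954, Zfp281 and Zfp207 held CCAAT once, and its complement ATTGG was found 0 times in the 6; CCAAT stood 0 times in Zfp791 and Zfp712. RefSeq promoters of 300 bases (250 before the start and 50 after it) matched 218 of the 266 members. CCAAT on either strand was present in 53.2% of 111 members lower in all 4 comparisons, 46.8% of 47 never called, 54.3% of 138 with a KRAB box, 38.8% of 80 without one, and 38.8% of 16522 promoters in all. The GC box letters GGGCGG were in 35.5% of KRAB promoters, 57.5% of the other members' and 48.2% of all. TATAAA was in 4.5% of members lower in all 4, 14.9% of those never called and 12.9% of all promoters. TGACGTCA was in 2.29% of members and 2.42% of all, CACGTG in 7.34% and 8.09%, the palindromic NRF1 motif in 4.13% and 1.38%, and the YY1 motif in 1.38% and 1.03%. CpG dinucleotides had a median of 11.5 with a KRAB box, 19 without one and 14 over all promoters. A match is a run of letters and not a measured site, and motifs can overlap.

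Members with a known role were described from a list of 31 genes, of which 28 were members. Of these 28, 7 fell in all 4 comparisons and 2 in some. Another 2 rose in all 4, 3 rose in some and 14 were never called. Of all Zfp members, these 28 included, 49.2% fell in all 4, 22.9% fell in some and 22.2% were never called. The shares that rose were 1.88% in all 4 and 3.76% in some. Among all genes tested in both regions, 8.71% were called lower and 2.34% higher in all 4. The difference between these sets was not tested. Zfp809, a KRAB protein that silences endogenous retroviruses, had the largest fall among the 28. It read 17.5, 14.2, 17.6 and 16 CPM in Veh and 7.79, 9.49, 8.7 and 8.32 CPM in HDACi hippocampus after CFC, a 1.82-fold fall (adjusted p = 4.62e-06), and it fell 1.9-fold in striatum (adjusted p = 1.77e-06). Neither group overlapped the other.

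Of the KRAB proteins known to keep imprinted genes marked, neither was called. Zfp57 was at 8.98 ± 0.87 CPM in Veh and 9.41 ± 1.1 CPM in HDACi hippocampus after CFC, with a log2 fold change of 0.13 ± 0.10 (adjusted p = 0.403). Zfp445, the KRAB member with the highest level at a Veh mean of 285 CPM, had log2 fold changes of -0.02 ± 0.1, 0.00 ± 0.1, 0.02 ± 0.07 and 0.09 ± 0.07, none of them called.

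Among roles outside KRAB silencing, Zfp143, a promoter-binding activator, fell 1.4-fold to 1.66-fold, and Zfp711, an X-linked gene of intellectual disability, 1.33-fold to 1.77-fold. Zfp384 fell 1.27-fold to 1.43-fold, Zfp330 1.26-fold to 1.42-fold and Zfp622, a factor of large ribosomal subunit assembly, 1.22-fold to 1.28-fold. Zfp410, an activator known for its control of Chd4, fell 1.19-fold to 1.36-fold, but its hippocampus calls were near the limit (adjusted p = 0.0492 and 0.0347) and were lost on leaving out 6 and 4 of 8 libraries, with a highest p of 0.158 without Veh CFC replicate 3 and 0.114 without HDACi Context replicate 1. The Zfp711 call was lost on leaving out 5 of 8 libraries in hippocampus after Context (highest adjusted p = 0.095, without HDACi Context replicate 1) and 2 of 8 in striatum after CFC (0.0522, without HDACi CFC replicate 1). The Zfp622 call was lost on leaving out 3 of 8 in hippocampus after Context (0.0573, without Veh Context replicate 3), and after CFC without the libraries that stood apart (0.0602). Zfp644, a partner of the G9a methyltransferase, fell 1.27-fold and 1.22-fold in hippocampus and was not called in striatum, and Zfp91, a ubiquitin ligase, fell 1.18-fold in striatum after Context. The Zfp644 call after Context was lost on leaving out 5 of 8 (0.105, without Veh Context replicate 3) and that after CFC without the libraries that stood apart (0.0749), and the Zfp91 call on leaving out 4 of 8 (0.11, without Veh Context replicate 3). Neither passed the test of the region difference after Context (adjusted p = 1 and 0.9).

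Highest in level of the 266 was Zfp365, a binding partner of DISC1, at a Veh mean of 512 CPM. After Context it rose 1.17-fold in hippocampus (Veh 342, 339, 335 and 368 CPM; HDACi 354, 410, 371 and 392 CPM; adjusted p = 0.0205) and 1.2-fold in striatum (adjusted p = 0.0465). The hippocampus groups overlapped. Leaving out 4 of 8 libraries ended the first call (highest adjusted p = 0.066, without HDACi Context replicate 2) and any 1 of 8 the second (0.192, without Veh Context replicate 1). Zfp106 (390 CPM), Zfp445 and Zfp638 (173 CPM) were not called, and Zfp706 (222 CPM), a small protein of stem cell differentiation, rose 1.23-fold and 1.25-fold in striatum. Zfp706 did not pass the test of the region difference. About 24.2% of the Zfp106 transcript is shared with the overlapping Gm26899.

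Partners of KRAB proteins were taken from a separate list. Of 22 listed genes of KRAB silencing, 9 were lower and 2 higher in hippocampus after CFC, 8 and 1 after Context, 8 and 3 in striatum after CFC, and 6 and 4 after Context; of all genes tested, 13.4%, 13.2%, 14.6% and 14.5% were lower and 7.42%, 6.55%, 9.57% and 10.3% higher. Of protein-coding genes at 5 CPM or more, 17.5%, 17.1%, 19.6% and 20% were lower and 6.27%, 6.2%, 8.74% and 8.84% higher. The list's median log2 fold changes were -0.22, -0.19, -0.14 and -0.14. Trim28, the KRAB corepressor itself, was called in none (log2 fold change -0.16 ± 0.11, adjusted p = 0.361, in hippocampus after CFC). Setdb1 fell 1.31-fold to 1.43-fold, Daxx, an H3.3 chaperone, 1.55-fold to 1.74-fold, and Morc3 1.63-fold to 1.7-fold in all 4. Smarcad1 fell 1.41-fold to 1.51-fold, Trim24 1.4-fold to 1.47-fold and Trim33 1.21-fold to 1.29-fold, also in all 4. Chd4, the NuRD remodeller, rose 1.17-fold to 1.26-fold in all 4.

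Other zinc finger families were set beside the 266. In hippocampus after CFC 36.7% of 30 Zbtb genes, 38.9% of 18 Zkscan and Zscan genes, and 37.5% of 16 Zc3h genes (CCCH fingers, mostly RNA-binding) were called lower, with median log2 fold changes of -0.23, -0.33 and -0.23. Of protein-coding genes at 5 CPM or more, 17.5% were lower in the same comparison. In striatum after CFC the 3 families stood at 33.3%, 61.1% and 37.5%. These differences between families were not tested.

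No member passed the test for conditioning. Between CFC and Context, edgeR called 0 of the 266 and 0% of all genes in either region, with vehicle or under HDACi. At an unadjusted p under 0.05 there were 0 and 4 of the 266 members in hippocampus and 1 and 14 in striatum, in Veh and HDACi. Of all genes tested, 188 and 775 of 18261 in hippocampus and 216 and 988 of 18256 in striatum were under that limit. DESeq2 also called 0 members in each. Zfp772, a KRAB gene, had the smallest p in hippocampus under HDACi (log2 fold change -0.37 ± 0.1, adjusted p = 0.778), at 9.12 ± 0.623 CPM after CFC and 11.6 ± 0.813 CPM after Context. In striatum under HDACi Zfp395 stood at 0.50 ± 0.15 and Zfp101 at 0.35 ± 0.11 (adjusted p = 0.839 for both). The interaction of drug and conditioning gave 0 members and 0% of all genes in each region by edgeR, and 0 members by DESeq2. At an unadjusted edgeR p under 0.05 there were 1 and 5 members in hippocampus and striatum, beside 390 of 18261 and 380 of 18256 genes tested.

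At the adjusted limit, the drug effect differed between hippocampus and striatum for few members. After CFC 3 of the 266 (1.13%) passed the test of the difference, beside 0.266% of all genes, and after Context 5 (1.88%), beside 0.62%. Of protein-coding genes at 5 CPM or more, 0.441% and 0.962% passed. At an unadjusted edgeR p under 0.05 there were 45 members after each behaviour. Beside them stood 878 and 946 of 11121 protein-coding genes at 5 CPM or more, and 1506 and 1485 of 19198 genes tested. Zfp59 and Zfp959, both KRAB genes, passed after both behaviours, with the more negative effect in hippocampus. Zfp959 read 8.08, 7.15, 8.56 and 7.5 CPM in Veh and 3.71, 2.57, 3.81 and 2.99 CPM in HDACi hippocampus after CFC, and 9.54, 8.57, 10.2 and 10.2 CPM against 8.87, 6.7, 8.85 and 7.27 CPM in striatum. The groups were apart in hippocampus and overlapped in striatum. The difference in log2 fold change, hippocampus minus striatum, was -1.001 ± 0.20 (adjusted p = 0.0139) after CFC and -1.15 ± 0.20 (adjusted p = 0.00239) after Context.

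Zfp59 fell 2.39-fold and 2.65-fold in hippocampus and 1.33-fold and 1.44-fold in striatum; the difference was -0.84 ± 0.16 after CFC (adjusted p = 0.0136) and -0.90 ± 0.16 after Context (adjusted p = 0.00431). It shares 28.5% of its sequence with other genes. Zfp334 differed after Context by -0.56 ± 0.12 (adjusted p = 0.0212): it fell 1.34-fold in hippocampus and stood at 31.0 ± 2.46 CPM in Veh and 31.1 ± 3.38 CPM in HDACi striatum. The effect was more negative in striatum for Zfp821 after CFC (difference 0.51 ± 0.1, adjusted p = 0.016), and for Zfp850 (0.68 ± 0.16, adjusted p = 0.0443) and Zfp956 (0.58 ± 0.14, adjusted p = 0.0393) after Context. Zfp821 went from 25.1 ± 1.29 CPM to 14.5 ± 0.891 CPM in striatum and from 26.1 ± 1.74 CPM to 21.8 ± 1.01 CPM in hippocampus.

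**Figure D5:**
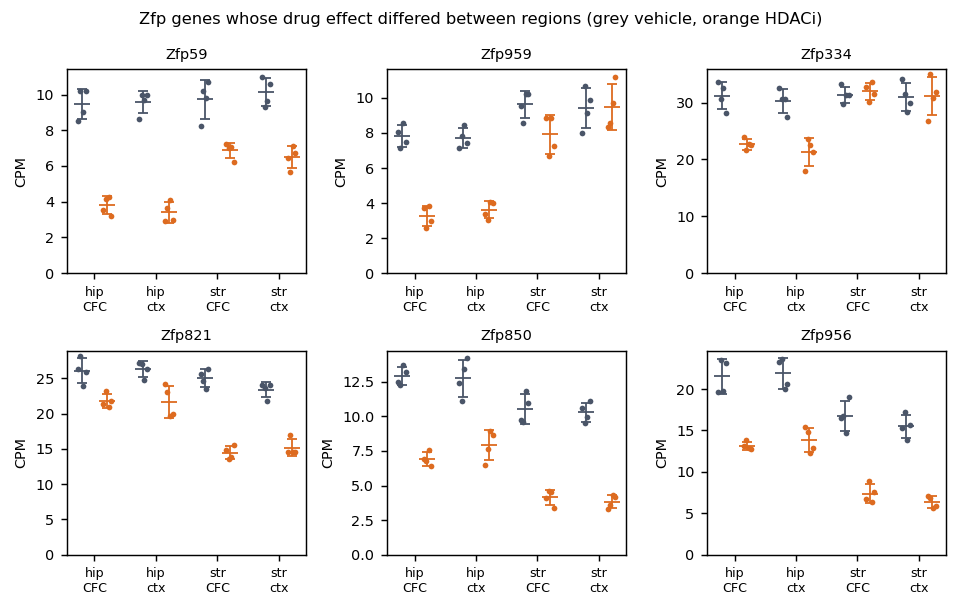
Level in CPM (linear axis from 0) in each library of the 6 Zfp genes called for a region difference of the drug effect, by region (hip, hippocampus; str, striatum) and behaviour (ctx, Context), vehicle in grey and HDACi in orange, bars mean ± SD of 4. Zfp59, Zfp959 and Zfp334 separate more in hippocampus, and Zfp821, Zfp850 and Zfp956 more in striatum.

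Those calls rested on single libraries in part. After CFC the Zfp59 and Zfp959 differences lost their call on leaving out 3 and 4 of 16 libraries in turn (highest adjusted p = 0.0619, without striatum HDACi CFC replicate 1, and 0.0625, without hippocampus HDACi CFC replicate 2), and both without the 4 libraries that stood apart (0.199 and 0.117), which left 1 member called. After Context the Zfp334, Zfp850 and Zfp956 calls were lost on leaving out 9, 5 and 4 of 16 (highest adjusted p = 0.221, without striatum HDACi Context replicate 2, 0.111, without hippocampus Veh Context replicate 2, and 0.0969, without striatum Veh Context replicate 2). Zfp334 also lost its call without the libraries that stood apart (0.091). The Context differences of Zfp59 and Zfp959 and the CFC difference of Zfp821 kept their calls in each of these.

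Levels between regions were compared in the HDACi libraries, which the choice of genes did not use. 179 of the 266 (67.3%) differed, 78 higher in striatum and 101 in hippocampus, beside 62.2% of all genes. Zfp521, known in striatal projection neurons that express Drd1, was 2.8-fold higher in striatum (adjusted p = 6.03e-14), at 25.9 ± 6.67 CPM there and 9.88 ± 1.34 CPM in hippocampus after CFC. Zfp959, Zfp180, Zfp945 and Zfp467 were 2.62-fold, 2.62-fold, 2.42-fold and 2.21-fold higher in striatum. Hippocampus was higher for Zfp697 (3.3-fold), Zfp189 (2.68-fold), Zfp251 (2.65-fold), Zfp608 (2.6-fold) and Zfp260 (2.41-fold). Zfp697 read 19.7, 21.9, 24.4 and 19.8 CPM in hippocampus and 5.54, 7.68, 5.97 and 8.17 CPM in striatum after CFC, with no overlap. In Veh libraries, as a description, it stood at 23.6 ± 1.44 CPM and 9.19 ± 2.6 CPM.

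Members closest to the 5 CPM limit were Zfp438 (5.02 CPM in Veh, 4.82 in HDACi), Zfp488 (5.09 and 4.43), Zfp442 (5.14 and 2.46), Zfp934 (5.16 and 4.05) and Zfp976 (5.18 and 3.01). Just outside it were Zfp78 (4.94 and 2.4), Zfp580 (4.93 and 5.44), Zfp618 (4.9 and 3.98), Zfp787 (4.88 and 2.81) and Zfp454 (4.84 and 1.52). Of these 10, Zfp580 was the one with a higher mean in HDACi libraries.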

How the data were processed

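RNA-seq gene counts from 32 mouse libraries, 4 in each of 8 groups, were used. Per the submitters' processing notes, reads were demultiplexed with bcl2fastq 2.20.0, STAR 2.6 was run and the build was mm10; how STAR's output was counted, and with which strand setting, is not given in the sources used here. The authors deposited 1 table of raw read counts per Ensembl gene. Counts were used as deposited, and CPM has its usual meaning, with the library's total count as denominator.

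Symbols, positions, transcripts and coding sequences came from the GENCODE M21 annotation of GRCm38. Genes with the symbol Zfp and digits, a protein-coding type and a mean of at least 5 CPM over the 16 vehicle libraries were taken as members. That rule used the vehicle level and not a difference between groups. The members and all lists were chosen with earlier results of these data known. The genes named are 28 with known roles, the called members with the smallest adjusted p in each direction of each drug comparison, those with the smallest p in the other comparisons, the 5 furthest to each side between regions, those beside the 5 CPM limit, the 5 highest, and the 5 with the largest mean change in each direction. Where others are named, their values were known when they were picked.

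Tests used edgeR 4.0.16 (glmQLFit, glmQLFTest, TMM scaling, filterByExpr) in R 4.3.3, with 4 group means over the 16 libraries of a region, or 8 over all 32, and Benjamini-Hochberg adjustment over all genes tested; a gene was called at an adjusted p under 0.05. The fit was tested on simulated counts. Alternatives in the fit were DESeq2 1.42.0, other scalings, no filter, a replicate block and offsets for GC content and length. Others were replicate pairs, left-out libraries, other member rules and a term for replicates 1 and 2 against 3 and 4. The labels name no batch, and that term follows the replicate numbers. In each Context group and in Veh CFC hippocampus, replicates 1 and 2, and 3 and 4, were closer in counts than any other pair. In HDACi Context hippocampus their chi-square per degree of freedom was 8.5 and 6.97, against 17.9 to 40.1 for other pairs. In the remaining CFC groups another pair was the closest. Whether this reflects a batch was not tested, and the main fits held no such term. P-values measure the spread between single mice.

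A KRAB box was called where the translated longest coding sequence aligned to a KRAB A box consensus with a BLOSUM62 local score of at least 50; a RefSeq protein table was not used here. Fingers were counted as C-x(2,4)-C-x(12)-H-x(3,5)-H. Shared sequence is the share of the longest transcript's 100-base stretches found in another gene's transcripts. Runs join members at most 500 kb apart. Promoter sequences are those of RefSeq on GRCm38.p6.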

Additional observations from a re-analysis of the deposited data

Results flagged for a closer look

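Among 152 groups of 4 libraries looked at, 8 had 1 library far from the other 3, and chance gives about 1 in 20 such groups. Low libraries were Zfp791 in hippocampus Veh CFC replicate 1 (6.09 CPM), Zfp281 in hippocampus Veh CFC replicate 2 (55.4 CPM) and Zfp281 in striatum Veh Context replicate 2 (56.1 CPM). High libraries were Zfp954 in striatum HDACi CFC replicate 2 (3.66 CPM), Zfp281 in striatum HDACi CFC replicate 3 (85.6 CPM), Zfp365 in hippocampus Veh CFC replicate 2 (379 CPM) and Zfp821 in striatum HDACi Context replicate 2 (17 CPM). The summed level of the 266 genes was high in hippocampus HDACi CFC replicate 3 (7230 CPM). Striatum HDACi CFC replicate 2 is also a library with low medium spiny markers, and the part of that in the Zfp954 value was not tested.

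The drug effect, tested as hippocampus minus striatum in log2 fold change, differed between regions for Zfp59 (-0.84 after CFC, -0.90 after Context), Zfp959 (-1.001 and -1.15), Zfp821 (0.51 after CFC), and Zfp334 (-0.56), Zfp850 (0.68) and Zfp956 (0.58) after Context.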

How the results depend on the processing

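Leaving out 1 library at a time, members called lower ranged from 52.3% to 62.4% and 52.6% to 62.8% in hippocampus after CFC and Context, and from 56.8% to 61.3% and 57.9% to 63.2% in striatum. Members called higher ranged from 1.5% to 2.63% in both hippocampus comparisons, and from 2.63% to 4.51% and 3.01% to 4.51% in striatum. Region differences of the drug effect ranged from 0.376% to 2.26% after CFC and from 1.13% to 3.38% after Context, levels between regions from 62% to 66.2%, and conditioning and interactions stayed at 0%. For the difference after CFC, 0.376% came without striatum HDACi CFC replicate 1 or 3, 0.752% without hippocampus HDACi CFC replicate 2 or striatum Veh CFC replicate 2, and 2.26% without striatum HDACi CFC replicate 2. After Context, 3.38% came without hippocampus HDACi Context replicate 1, 3.01% without striatum HDACi Context replicate 3 and 1.13% without striatum Veh Context replicate 3. The 1.5% called higher came without hippocampus HDACi CFC replicate 1, or Veh Context replicate 2 or HDACi Context replicate 2 or 4, and 2.63% in striatum after CFC without Veh CFC replicate 2.

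With replicates 1 and 2 alone, 40.2%, 38% and 39.5% were called lower in hippocampus after CFC and Context and in striatum after Context, and 1.13%, 1.5%, 1.5% and 1.13% higher in the 4 comparisons; with replicates 3 and 4 alone, 36.1% were lower in hippocampus after Context and 1.13%, 1.5%, 1.88% and 0.752% higher. Both gave 0% for region differences, with fewer samples. With replicates 1 and 2 alone, 6.33%, 6.08% and 6.22% of all genes tested were lower in the comparisons named. With replicates 3 and 4 alone that share was 6.2% in hippocampus after Context. Library-size scaling gave 1.5%, 1.5%, 2.63% and 2.26% higher. It moved the median log2 fold change of all genes to between -0.05 and -0.09, and 182 to 188 members were called lower. Of all genes tested, 17.8% to 21.7% were lower under that scaling. For region differences after CFC and Context, DESeq2 gave 1.88% and 3.38%, no filter on low counts 0.752% and 1.13%, and only the groups compared 0% and 1.13%. A term for replicates 1 and 2 against 3 and 4 gave 2.63% and 4.51%, and GC and length offsets 3.01% and 6.39%. Leaving out the libraries that stood apart gave 0.376% and 3.76%. After CFC a limit of 10 CPM gave 0.478%, and members with no shared sequence or overlap 0.671%. Members called higher in hippocampus after CFC were 1.5% with only the groups compared or without the libraries apart. They were 4.51% with offsets and 4.03% among those without shared sequence. After Context they were 1.5% with no filter, 4.89% with offsets and 3.6% with members chosen on HDACi libraries. With the term for replicates 1 and 2 against 3 and 4 they were 4.14% after Context. The cause was not tested.

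Replicate numbers were not taken to pair the samples, since the labels do not say that they do and not every same-numbered pair correlated over 0.1. Same-numbered libraries correlated from -0.062 to 0.446 in hippocampus (means 0.107 to 0.33 by number, other numbers -0.107 to -0.035) and from -0.305 to 0.437 in striatum (means -0.003 to 0.187). As a hint from the data, 8 of 16 hippocampus and 7 of 16 striatum libraries correlated best with their own number out of 4 numbers. The main fits held no term for the number. With a replicate block 187 and 181 members were called lower in hippocampus after CFC and Context and 180 and 171 in striatum, 4.51% were called higher in hippocampus after Context, and region differences were 2.63% and 4.14%. Of all genes tested, 18%, 18.1%, 17.5% and 17.2% were lower with that block. With the term for replicates 1 and 2 against 3 and 4, 183 and 179 members were lower in hippocampus and 183 and 171 in striatum. Of all genes tested, 17.3% to 17.9% were lower with that term. Of 249 called results for named genes, 104 lost their call under at least 1 setting and 0 reversed.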
